A study of Mus musculus with 7 samples.

Results

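The genes examined here were 8 genes of arginine and creatine metabolism, Gatm, Gamt, Ass1, Asl, Arg2, Ddah1, Oat and Slc6a8, found by name among 54532 genes in a table of read counts from mouse kidney. All 8 were present once, and all 8 passed the filter on low counts with 15351 genes in all. The 7 libraries were from male C57BL/6J mice aged 6 to 8 weeks that all received 20 mg/kg of cisplatin, a platinum compound toxic to kidney tubules, through a tail vein. The animals of 4 libraries were labelled saline, and those of 3 had DXZ, 40 mg/kg, also through a tail vein, first 30 min ahead of the cisplatin and then each 24 h over 3 days. The labels do not spell out DXZ. There was no library without cisplatin among those analysed here, and the labels do not say that libraries of a group came from separate animals, so p-values measure the spread between these libraries.

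The kidney is a main source of the body's arginine. Proximal tubule cells take up citrulline, and argininosuccinate synthase (Ass1) and argininosuccinate lyase (Asl) turn it into arginine. The same segment holds glycine amidinotransferase (Gatm), which uses arginine and glycine to make guanidinoacetate, the precursor that guanidinoacetate methyltransferase (Gamt), mostly in liver, methylates to creatine. Creatine enters cells through the transporter Slc6a8. Arginine is broken down by the mitochondrial arginase Arg2, which in the kidney belongs to the straight part of the proximal tubule. The ornithine that Arg2 releases is passed on by ornithine aminotransferase (Oat), and Ddah1 removes asymmetric dimethylarginine, an inhibitor of nitric oxide synthases.

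The libraries held between 16058157 and 18133736 counts. Saline 1 and DXZ 1 were the libraries farthest from the others of their groups, with mean root-mean-square differences of 0.63 and 0.79 in log2 CPM (counts scaled to library size by TMM) against 0.54 to 0.59 in the other saline and 0.66 and 0.69 in the other DXZ libraries. The 8 members are therefore also given without saline 1, or without both, where the call changed. The calls of the pathway genes are given with libraries left out. All 20 of the proximal tubule markers were tested. Of these 8 fell and 0 rose in DXZ by edgeR's quasi-likelihood test with Benjamini-Hochberg adjustment, and none was at 0. By that test 2.31% of all 15351 tested genes were lower and 3.24% higher, the shares to set beside each marker count here. The summed level of the proximal tubule markers was 22815 to 46162 CPM in saline, highest in saline 1, and 13914 to 20252 CPM in DXZ. Such sums weigh the most abundant genes most: Kap, not called (adjusted p = 0.364, edgeR), was at 18073 CPM in saline 1 and 1730 CPM in saline 4. Of 8 injured tubule markers 3 rose. The sum of the 8 was lowest, at 8292 CPM, in saline 1, against 19070.0 to 23778 CPM in the other saline and 22063 to 36492 CPM in the DXZ libraries. Spp1, not called (adjusted p = 0.526, edgeR), held 6465 CPM of this sum in saline 1. DXZ 1 stood apart from DXZ 2 and 3 in markers of other cells. The 6 fibroblast and pericyte markers, all tested, 0 called and none at 0, summed to 807, 96.3 and 55.5 CPM in DXZ 1 to 3 and to 142 to 547 CPM in saline. The 9 macrophage markers, all tested, 1 higher and none at 0, summed to 382, 129 and 74.9 CPM in DXZ 1 to 3 and to 112 to 233 CPM in saline. Of 5 distal convoluted tubule markers, all tested and none at 0, 2 fell, and their sum was 397 to 682 CPM in saline and 246 to 407 CPM in DXZ. The part these markers play in the results was not tested, and in whole kidney fewer cells of a type and less RNA per cell cannot be told apart.

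Ass1 shares its sequence with Gm5424, a processed pseudogene (chromosome 10, 62071123 to 62072362, plus strand, GRCm38). The annotated Gm5424 transcript of 1240 bases aligned without gaps to Ass1 and differed at 6 bases, an identity of 99.52%, and 54.51% of its windows of 100 bases occur unchanged in Ass1. The Ass1 transcript is longer, at 1696 bases, and 38.95% of its windows occur in Gm5424. The 90-base stretch below holds positions 340 to 429 from the first base of the start codon in Ass1 and from the first base of Gm5424, shown because within the aligned part a read can be told to come from one copy only where it covers such a base. Capitals mark the 2 differing bases.
Ass1: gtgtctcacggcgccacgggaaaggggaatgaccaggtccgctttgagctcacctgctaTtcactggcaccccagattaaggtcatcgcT
Gm5424: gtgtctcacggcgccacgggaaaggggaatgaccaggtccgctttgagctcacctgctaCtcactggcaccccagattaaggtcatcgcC
How the authors treated reads that fit both copies is not given in the sources used here, so the counts of Ass1 and Gm5424 are uncertain singly, and their sum is given beside them.

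Of the 8 genes, 5 had a promoter sequence in the RefSeq table of GRCm38.p6, Ass1, Gatm, Ddah1, Oat and Gamt. Their windows, 250 bases before to 50 after the start, held 14 to 27 CpG dinucleotides where the median of 32851 promoters was 7, and 36.3% of all promoters held at least 14. Their GC content was 60.7% to 74.0% (median of all promoters 52.7%). The parts before the annotated gene start are printed for Ass1 (chr2:31470020-31470206, plus strand) and Gatm (chr2:122611304-122611527, minus strand), which had the lowest fold changes among the 8, with CpG dinucleotides in capitals.
Ass1 promoter: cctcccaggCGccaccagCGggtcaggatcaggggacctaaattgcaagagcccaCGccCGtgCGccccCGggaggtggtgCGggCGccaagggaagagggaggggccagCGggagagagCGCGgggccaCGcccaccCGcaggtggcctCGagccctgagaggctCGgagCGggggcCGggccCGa
Gatm promoter: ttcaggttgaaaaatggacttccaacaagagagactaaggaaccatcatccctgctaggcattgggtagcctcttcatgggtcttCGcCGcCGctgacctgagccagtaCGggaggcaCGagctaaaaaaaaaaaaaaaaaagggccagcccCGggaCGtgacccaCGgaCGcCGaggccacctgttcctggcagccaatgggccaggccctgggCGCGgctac
A search on both strands, in which matches of different motifs were counted separately even where they overlap, for 6 motifs found none in the 5 windows. The motifs were HNF1 by its name, HNF4 (CAAAGTCCA), AP-1 (TGANTCA), the NRF2 antioxidant element (TGACNNNGC), the ATF4 amino acid response element (TGATGNAAN) and the cyclic AMP element (TGACGTCA). They occur in 0.009%, 0.475%, 7.81%, 12.4%, 3.95% and 1.79% of all promoters of that length. The search says only that these letters are not in these windows.

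Singly, 0 of the 8 genes passed at an adjusted p below 0.05, where 5.56% of all 15351 tested genes did (2.31% lower and 3.24% higher in DXZ), while 3 of the 8 lay just beyond it (edgeR adjusted p of 0.0518, 0.054 and 0.0561 for Ass1, Gatm and Asl). At an unadjusted edgeR p below 0.05 there were 5 of the 8, against 25.4% of all tested genes. The CPM ranges of the groups did not overlap for 4 of the 8, Gatm, Ass1, Asl and Oat, all lower in DXZ, where 11.3% of all tested genes were lower without overlap. The log2 fold change of DXZ over saline was negative for 7 and positive for 1, with a median of -0.48 beside 0.01 over all tested genes. By the other tests run, DESeq2 called 4 of the 8 lower (Gatm, Ass1, Asl and Oat) where it called 5.63% of all its tested genes lower, and limma-voom called 2 (Gatm and Ass1) where the share was 2.03%. On filtered FPKM, limma called Ass1 lower with either pseudocount (1 or 0.1), against 3.09% and 3% of all genes, and on unfiltered FPKM it called 0 of the 8, against 0.533% in either direction. None of these tests called a member higher. Without saline 1, edgeR called 2 lower (Gatm and Asl), where 1.21% of all genes were called lower. Without saline 1 and DXZ 1, a fit added after the data were seen, the test called 4 lower and 1 higher (Arg2), where 4.55% of all genes were lower and 4.1% higher. The plot of CPM by library shows all 8 genes.

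**Figure D1:**
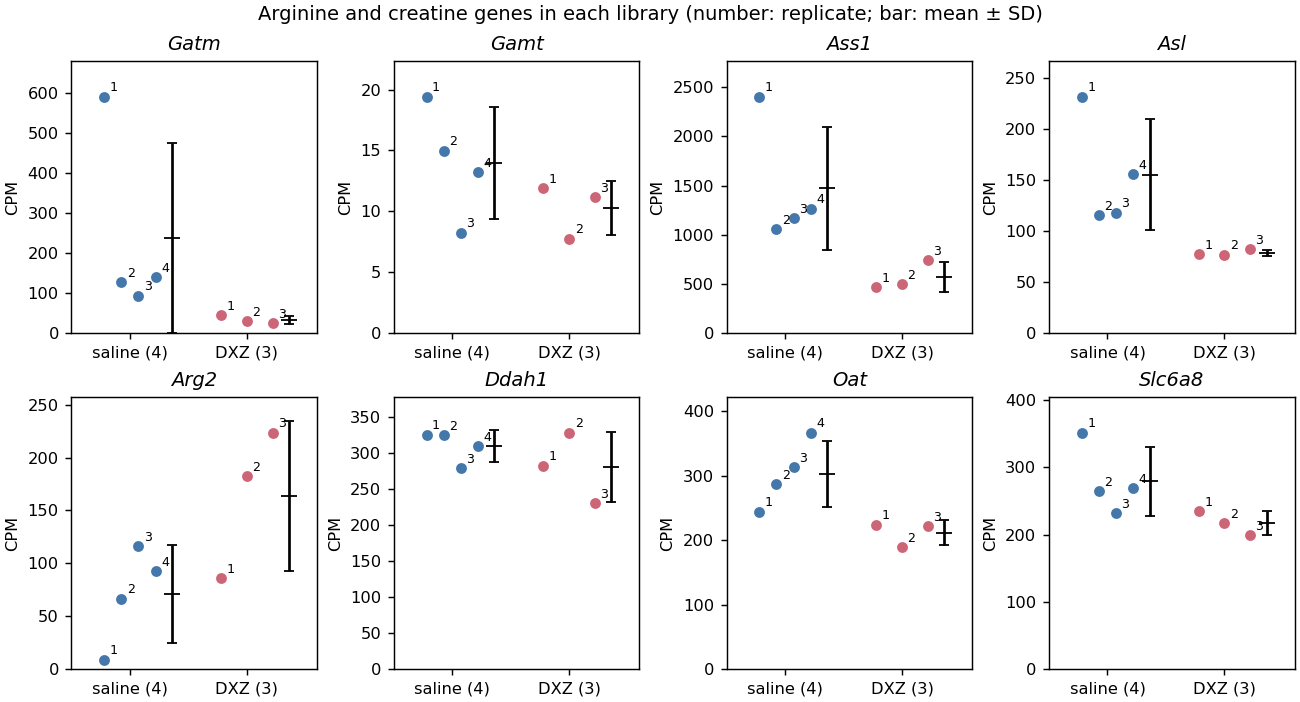
Level of each of the 8 genes in CPM (y axis, from 0) in the 4 saline (blue) and 3 DXZ (red) libraries, with the replicate number at each point and the mean ± SD of each group as a black bar. Gatm, Ass1, Asl and Oat have every DXZ point below every saline point, and saline 1 is highest for Gatm at 591 CPM and lowest for Arg2 at 8.71 CPM.

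Arginine synthesis is represented by Ass1 and Asl, which act one after the other. Ass1 (ENSMUSG00000076441, chromosome 2, 31470207 to 31520672, plus strand, 16 exons) was at 2406, 1056, 1164 and 1263 CPM in saline 1 to 4 and at 467, 495 and 739.6 CPM in DXZ 1 to 3. Every DXZ library lay below every saline library, and saline 1 was the highest of all. The means were 1472 ± 628 CPM (SD, n = 4) and 567 ± 149.9 CPM (SD, n = 3), with a log2 fold change of -1.38 (SE 0.33, 95% interval -2.13 to -0.62, adjusted p = 0.0518, edgeR). Without saline 1 it was -1.04 (adjusted p = 0.0525, edgeR), and without saline 1 and DXZ 1 it was -0.91 and passed (adjusted p = 0.0412, edgeR).

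Asl (ENSMUSG00000025533, chromosome 5, 130011258 to 130029247, minus strand, 17 exons), which splits argininosuccinate into arginine and fumarate, was at 232, 115, 118 and 156 CPM in saline and at 77.4, 76.4 and 81.8 CPM in DXZ. The DXZ libraries lay within 1.07-fold of each other and the saline libraries within 2.01-fold, with no overlap. The log2 fold change was -0.98 (SE 0.24, 95% interval -1.54 to -0.42, adjusted p = 0.0561, edgeR). Asl passed without saline 1, at -0.73 (adjusted p = 0.0444, edgeR), and without saline 1 and DXZ 1, at -0.71 (adjusted p = 0.0398, edgeR).

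The reads assigned to Gm5424 were fewer in every DXZ library than in any saline library. Gm5424, named after its values were seen, was at 535, 305, 311 and 395 CPM in saline and at 184, 125 and 177 CPM in DXZ, and passed (log2 fold change -1.26, SE 0.24, adjusted p = 0.0313, edgeR). It took 18.2% to 23.8% of the counts of both copies in saline and 28.3%, 20.1% and 19.3% in DXZ 1 to 3. With the counts of both summed, an alternative chosen after seeing the data, the log2 fold change was -1.35 and passed (adjusted p = 0.0459, edgeR). Gm5424 did not pass without saline 4, DXZ 2 or DXZ 3 (adjusted p = 0.0898, 0.0946 and 0.0758, edgeR).

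Gatm, which makes the creatine precursor, had the lowest log2 fold change of the 8 genes. Gatm (ENSMUSG00000027199, chromosome 2, 122594467 to 122611303, minus strand, 9 exons) was at 591, 126, 92.7 and 139 CPM in saline 1 to 4 and at 43.5, 29.6 and 23.4 CPM in DXZ 1 to 3. No DXZ library reached the lowest saline library, and saline 1 stood far above the other saline libraries, so that the saline group spanned 6.37-fold. The means were 237 ± 237 CPM (SD, n = 4) and 32.2 ± 10.3 CPM (SD, n = 3), and the fitted level was 7.37-fold lower in DXZ (log2 fold change -2.88, SE 0.70, 95% interval -4.49 to -1.27, adjusted p = 0.054, edgeR). Without saline 1 the log2 fold change was -1.90 and passed (SE 0.25, adjusted p = 0.0273, edgeR), and without saline 1 and DXZ 1 it was -2.17 and passed (adjusted p = 0.0105, edgeR). The direction was the same with each library left out, and the log2 fold change ranged from -3.16 to -1.90.

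Gamt (ENSMUSG00000020150, chromosome 10, 80258151 to 80261012, minus strand, 6 exons), the enzyme of the next step, was at 19.4, 14.985, 8.25 and 13.2 CPM in saline and at 11.9, 7.74 and 11.2 CPM in DXZ. The groups overlapped, with saline 3 below 2 of the 3 DXZ libraries. Its log2 fold change was -0.44 (SE 0.29, 95% interval -1.11 to 0.22, adjusted p = 0.372, edgeR), and -0.25 without saline 1. Per length, the deposited FPKM (a level per gene length, scaled by a factor for each library) of Gatm was 4.05 to 14.6 times that of Gamt in saline and 1.01 to 1.84 times in DXZ.

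Slc6a8 (ENSMUSG00000019558, chromosome X, 73673150 to 73682502, plus strand, 13 exons), which carries creatine into cells with sodium and chloride, was at 352, 265, 232 and 269 CPM in saline and at 235, 217 and 199 CPM in DXZ. The groups overlapped by 1 pair, saline 3 and DXZ 1. Its log2 fold change was -0.36 (SE 0.15, 95% interval -0.71 to -0.01, adjusted p = 0.183, edgeR), and -0.24 without saline 1.

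Arg2 was the member with a positive log2 fold change. Arg2 (ENSMUSG00000021125, chromosome 12, 79130777 to 79156301, plus strand, 8 exons) was at 8.71, 66.4, 116 and 92.6 CPM in saline 1 to 4 and at 85.7, 182 and 224 CPM in DXZ 1 to 3. Saline 1 lay 13.3-fold below the highest saline library, DXZ 1 lay among the saline libraries, and DXZ 2 and 3 lay above all of them. The log2 fold change was 1.21 (SE 0.69, 95% interval -0.38 to 2.79, adjusted p = 0.314, edgeR). It was 0.84 without saline 1, and 1.147 without saline 1 and DXZ 1, where it passed (SE 0.22, adjusted p = 0.0297, edgeR). Of the 1428 exonic bases of Arg2, 285 at its end also belong to exons of Vti1b on the opposite strand, and whether counting used strand is not given in the sources used here.

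Oat (ENSMUSG00000030934, chromosome 7, 132557478 to 132576398, minus strand, 10 exons), which converts ornithine to pyrroline-5-carboxylate, was at 244, 286, 313 and 367 CPM in saline and at 224, 189 and 221 CPM in DXZ. Here saline 1 was the lowest saline library, unlike for Ass1, Asl and Gatm, and it was still above all DXZ libraries. The means were 303 ± 51.5 CPM (SD, n = 4) and 211 ± 19.3 CPM (SD, n = 3), with a log2 fold change of -0.52 (SE 0.15, 95% interval -0.87 to -0.17, adjusted p = 0.0835, edgeR). Without saline 1 and DXZ 1 it was -0.65 and passed (adjusted p = 0.044, edgeR). Per length, Oat was at 1.63 to 16.9 times the FPKM of Arg2 in saline and at 1.58, 0.63 and 0.60 times in DXZ 1 to 3, so Arg2 was the more abundant of the pair in DXZ 2 and DXZ 3 alone among the 7 libraries.

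Ddah1 (ENSMUSG00000028194, chromosome 3, 145758675 to 145894277, plus strand, 6 exons) varied least. It was at 326, 325, 279 and 309 CPM in saline and at 282, 328 and 231 CPM in DXZ, with the highest value of all in DXZ 2 and the lowest in DXZ 3. The log2 fold change was -0.14 (SE 0.14, 95% interval -0.46 to 0.17, adjusted p = 0.56, edgeR), -0.02 without DXZ 3 and -0.29 without DXZ 2.

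Per length, Ass1 was the most abundant of the 8 in each of the 7 libraries, at 607 ± 259 FPKM in saline and 233 ± 62.6 FPKM in DXZ. Behind it in saline came Oat (128 ± 22.2 FPKM), Gatm (78.7 ± 78.4), Ddah1 (77.4 ± 5.47), Slc6a8 (53.3 ± 9.74), Arg2 (49.5 ± 32.2), Asl (32.0 ± 11.2) and Gamt (9.63 ± 3.18; SD, n = 4 for all). Gatm owed its place to saline 1, where it was second, and was in place 6 in each of the other 3 saline libraries. The spreads of Gatm and Arg2 overlapped those of their neighbours in this order, so the places of these 2 genes in saline are not settled. In DXZ the order was Arg2 (114 ± 50.1 FPKM), Oat (88.85 ± 7.295), Ddah1 (69.9 ± 12.6), Slc6a8 (41.3 ± 3.02), Asl (16.1 ± 0.64), Gatm (10.6 ± 3.26) and Gamt (7.04 ± 1.45; SD, n = 3 for all) behind Ass1. Arg2, Oat and Ddah1 did not separate beyond their spread there, nor did Gatm and Gamt. Gatm was below Asl in each DXZ library and above it in each saline library.

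**Figure D2:**
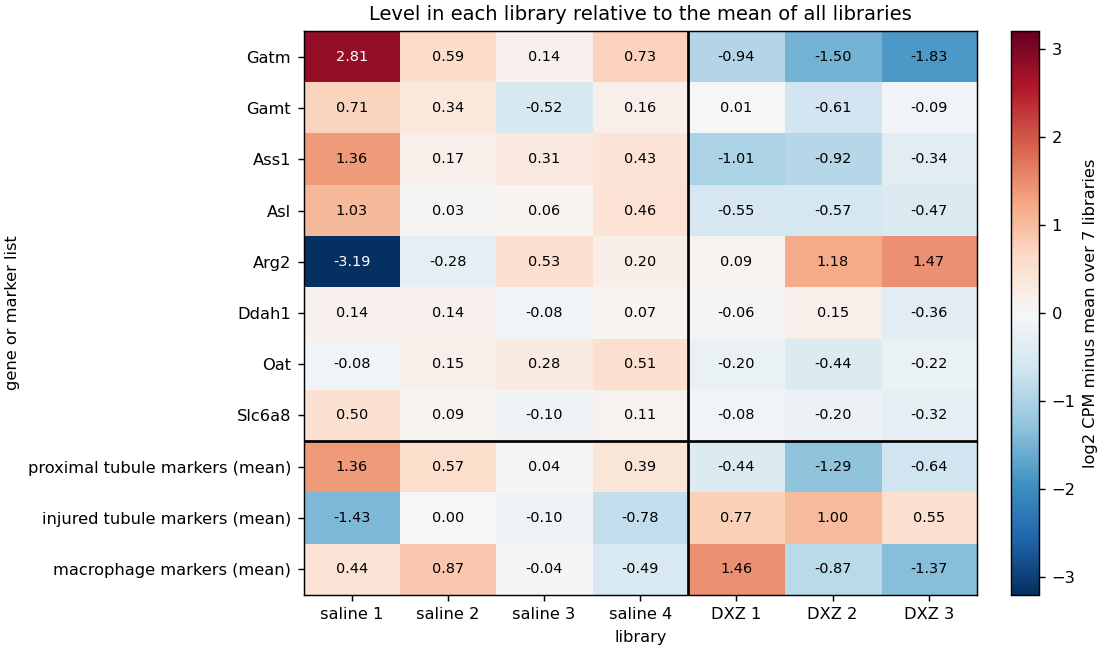
Log2 CPM of each gene in each library minus the gene's mean over the 7 libraries (color and printed value), with the mean of the proximal tubule, injured tubule and macrophage markers below the black line. Saline 1 holds the highest value of Gatm (2.81) and the lowest of Arg2 (-3.19), and it also holds the highest proximal tubule (1.36) and lowest injured tubule (-1.43) marker values.

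The width of variation differed among the 8 genes. Over the 7 libraries the centred log2 CPM of Ddah1 spanned 0.51 and that of Slc6a8 0.82, against 4.65 for Gatm and 4.66 for Arg2. Ass1 and Asl, the consecutive enzymes, differed by a root-mean-square of 0.28, and Gatm was nearest to Ass1, at 0.84. Arg2 differed from each other member by 1.49 (Oat) to 2.84 (Gatm). Among all tested genes with ordinary names, the profile nearest to Gatm was that of Ces1e, a carboxylesterase (root-mean-square difference 0.32 over 7 libraries), followed by Sectm1b (0.35). Nearest to Ass1 were Slco1a6 (0.17), Adhfe1 (0.19) and Sord, sorbitol dehydrogenase (0.20), and nearest to Asl were Acot11 (0.09), Smpdl3a (0.11) and Xylb (0.11). Nearest to Arg2 was Apoc3, an apolipoprotein (0.24), then Cbr3 (0.44) and Nppc (0.45), the last at a mean of only 0.90 CPM. Oat had Adck5 (0.05), Shmt1 (0.06) and Anks4b (0.08) nearest, and Slc6a8 had Snx27 (0.04), Lrpprc (0.06) and Mfsd1 (0.06). For Gamt these were St6galnac2 (0.13), Amn (0.14) and Drc3 (0.15), and for Ddah1 they were Arl8b, Apbb2 and Zfp275 (0.06 to 0.07).

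Set against the mean log2 CPM of the 20 proximal tubule markers in the same library, the 8 genes took different positions. Gatm was lower relative to the markers in DXZ by 1.12 on the log2 scale, with no overlap between the groups. The level of Ass1 relative to the markers was 0.06 higher in DXZ than in saline and that of Asl 0.46 higher, and in both the groups overlapped. Relative to the markers Arg2 was higher by 2.98, Ddah1 by 1.23, Slc6a8 by 1.03 and Gamt by 0.98, all without overlap, and Oat by 0.88 with overlap. The centred marker mean itself was at 0.04 to 1.36 in saline and at -1.29 to -0.44 in DXZ, so a gene of unchanged level comes out higher on this scale. In CPM the groups overlapped for Arg2, Ddah1, Slc6a8 and Gamt. The share of all tested genes without overlap on this scale was not computed. The exact permutation test over the libraries, made two-sided by doubling the smaller tail, gave p = 0.0571 for the 5 genes without overlap relative to the markers. With this doubling that is the smallest p that 4 against 3 libraries allow, so none could pass. For Ass1, Asl and Oat the exact permutation p was 0.8, 0.229 and 0.114. Against the 6 markers of the S3 segment alone the groups overlapped for all 8 genes. The differences were then -1.38 for Gatm, 2.71 for Arg2, 0.96 for Ddah1, 0.76 for Slc6a8 and 0.71 for Gamt, with exact permutation p of 0.114, 0.171, 0.4, 0.4 and 0.286. Those of Ass1, Asl and Oat were -0.21, 0.19 and 0.61. Differences against the 6 markers of the S1 and S2 segments alone were also computed and are not given here. The centred mean of those markers was at 0.32 to 1.21 in saline and at -1.31 to -0.53 in DXZ. For the S3 markers it was at -0.63 to 1.95 in saline and at -1.78 to 0.31 in DXZ. Against all 20 markers the difference for Ass1 was between -0.11 and 0.36 with single libraries left out, and that for Asl was 0.23 without DXZ 2. Without saline 1 that of Arg2 was 1.89 and that of Oat 0.52.

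**Figure D3:**
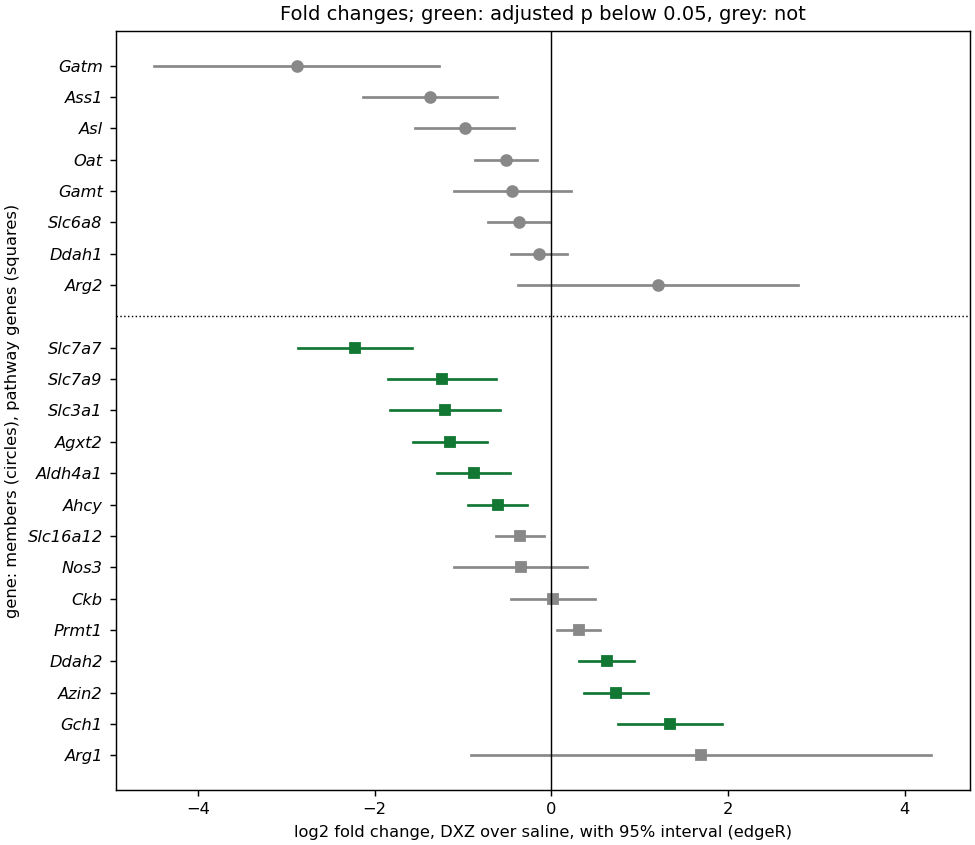
Log2 fold change of DXZ over saline with its 95% interval from edgeR (x axis) for the 8 members (circles) and the named genes of the wider pathway (squares), green where the adjusted p was below 0.05. Gatm, Ass1, Asl, Oat and Slc6a8 have intervals below 0 without passing after adjustment, and Slc7a7 at -2.22 and Gch1 at 1.34 are the lowest and highest genes that passed.

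The other genes of the pathway were taken from a list of 48 names in 6 functional groups. Of these 47 were in the table and 38 were tested, with 3 higher and 6 lower in DXZ and a median log2 fold change of -0.06, and 29 did not pass (edgeR). As above, 5.56% of all tested genes passed (2.31% lower and 3.24% higher), the shares to set beside the counts by group below too. The count was 0 without saline 4 and 0 without DXZ 2, where 0.0263% and 0.00637% of all genes passed. At an unadjusted edgeR p below 0.05 there were 18 of 36 tested pathway genes without saline 4 and 17 of 38 without DXZ 2. With all libraries there were 22 of 38. Over all tested genes these numbers were 3074 of 15205, 3191 of 15705 and 3899 of 15351, in the same order. The count past the adjusted threshold was 3 without saline 1, saline 2 or DXZ 3 (2.47%, 1.96% and 0.897% of all genes), 4 without saline 3 (2.8%) and 8 without DXZ 1 (10.1%). By gene, Slc7a7 (adjusted p = 0.0747 without saline 4 and 0.0697 without DXZ 2, edgeR) and Agxt2 (0.0758 and 0.079) lost the call only without these 2 libraries. Slc7a9 lost it also without saline 2 and DXZ 3, and Gch1 also without saline 1, saline 3 and DXZ 3. Aldh4a1 kept the call without saline 3 or DXZ 1 only, Azin2 and Slc3a1 without DXZ 1 only, and Ahcy without DXZ 3 only.

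Of the carriers of arginine and other cationic amino acids, 3 of 7 tested fell. These were Slc7a7, the basolateral exporter (log2 fold change -2.22), and both subunits of the apical cystine and arginine transporter, Slc7a9 (-1.24) and Slc3a1 (-1.21), with edgeR adjusted p of 0.0204, 0.0418 and 0.0446. Slc3a1 was at 535, 566, 490.2 and 535 CPM in saline and at 322, 131 and 238 CPM in DXZ. Slc7a9 was at 167, 98.4, 72.0 and 101 CPM in saline and at 49.5, 40.9 and 48.9 CPM in DXZ. In both genes the groups were separate, and the other 4 carriers did not pass. Among these 4, Slc7a1 and Slc7a6 were at log2 fold changes of 0.53 and 0.50 (adjusted p = 0.0868 and 0.135, edgeR). Both were higher in DXZ without overlap, where 12.8% of all tested genes were. Slc7a2 was at -0.73 and Slc3a2 at 0.08 (adjusted p = 0.555 and 0.757, edgeR), both with overlap.

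In the nitric oxide group, genes that dispose of dimethylarginine moved in opposite directions. Agxt2, a mitochondrial aminotransferase that can use asymmetric dimethylarginine, fell, with a saline mean of 96.2 ± 19.1 CPM (SD, n = 4), a DXZ mean of 43.6 ± 7.92 CPM (SD, n = 3) and a log2 fold change of -1.14 (SE 0.18, adjusted p = 0.0216, edgeR). Its saline libraries were at 123, 88.1, 78.6 and 95.1 CPM and its DXZ libraries at 37.8, 40.4 and 52.6 CPM. Ddah2, the homologue of Ddah1, rose with a log2 fold change of 0.63 (SE 0.14, adjusted p = 0.0433, edgeR), from 16.7 to 20.9 CPM in the saline libraries to 25.8 to 32.6 CPM in the DXZ libraries. Ddah2 lost the call with each of the 7 libraries left out in turn, at log2 fold changes of 0.54 to 0.69. Gch1, which starts the synthesis of the nitric oxide synthase cofactor tetrahydrobiopterin, rose with a log2 fold change of 1.34 (adjusted p = 0.0313, edgeR).

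The nitric oxide synthases themselves were scarce. Nos1 and Nos2 were below the filter, at no more than 0.29 and 0.57 CPM in any library. Nos3, the endothelial enzyme, was at 7.11, 10.2, 10.4 and 7.70 CPM in saline and at 11.05, 5.26 and 4.55 CPM in DXZ, and did not pass (log2 fold change -0.35, adjusted p = 0.549, edgeR). Without DXZ 1 it was at -0.85, and without saline 1 and DXZ 1 at -0.94, where it passed (adjusted p = 0.0472, edgeR). The 7 endothelial markers, all tested, 0 called and none at 0, summed to 238 to 391 CPM in saline and to 403, 137 and 88.4 CPM in DXZ 1 to 3, the same order as Nos3 in the DXZ libraries, and their part in it was not tested.

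In the urea cycle and ornithine group 1 of 7 tested genes passed, Azin2, an antizyme inhibitor, which rose with a log2 fold change of 0.73 (adjusted p = 0.0428, edgeR). The liver enzymes of the cycle were nearly absent: Otc had 0 counts in all 7 libraries, which allows up to 0.169 to 0.183 CPM per library (3 counts, covering counting error only), and Cps1 had 1 count in all. Arg1, the liver arginase, had 64 counts in all and was at most 1.86 CPM, in DXZ 1. Arg2, at 8.71 to 224 CPM, was the more abundant arginase in each library.

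Of 5 tested genes for creatine use, export and methyl supply, 1 passed. Ahcy, which clears the S-adenosylhomocysteine that methyltransferases such as Gamt release, fell with a log2 fold change of -0.61 (adjusted p = 0.0493, edgeR), from 423 to 464 CPM in saline to 252, 255 and 353 CPM in DXZ. Slc16a12, a creatine exporter, was at 113 to 142 CPM in saline and 92.1 to 107 CPM in DXZ (log2 fold change -0.36, adjusted p = 0.108, edgeR). The creatine kinase Ckb was at a log2 fold change of 0.02 (95% interval -0.46 to 0.50, adjusted p = 0.968, edgeR), and its sign turned in 8 of 17 alternatives. Of 8 protein arginine methyltransferases, a family of which only some members are sources of asymmetric dimethylarginine, 0 passed. An unadjusted edgeR p below 0.05 was found for 2 of the 8, beside 25.4% of all tested genes. Prmt1 was at a log2 fold change of 0.31 (adjusted p = 0.117, edgeR). Aldh4a1, which takes the product of Oat on to glutamate, fell with a log2 fold change of -0.88 (adjusted p = 0.0369, edgeR), the 1 gene of 4 tested in its group to pass.

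**Figure D4:**
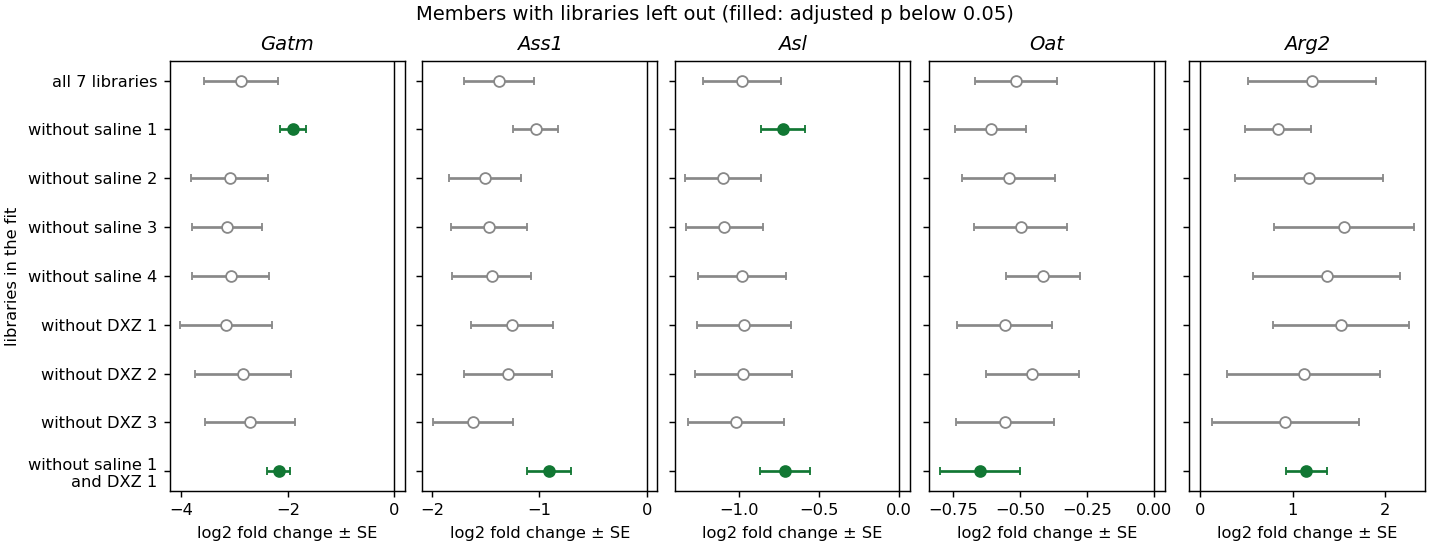
Log2 fold change ± SE (x axis) of Gatm, Ass1, Asl, Oat and Arg2 with all 7 libraries and with the named libraries left out (y axis), filled where the adjusted edgeR p was below 0.05. Every point of Gatm, Ass1, Asl and Oat is below 0 and every point of Arg2 above 0, and Gatm moves from -2.88 to -1.90 without saline 1.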

How the data were processed

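RNA-seq of mouse kidney after cisplatin was used, with 4 libraries labelled saline and 3 labelled DXZ. The authors deposited whole-number read counts per gene, with no normalization. The authors also deposited FPKM values. Within each library 1 factor and the gene length turn the counts into them (largest relative deviation 1.95e-08), so they are no independent measurement. The submitters' processing notes list HISAT2, StringTie and mm9, with no roles. The table's coordinates, however, are those of GRCm38: GENCODE M21 has 54409 of the identifiers, and start and end were equal for 98.3% of them, including all 8 members. The counting program is not given in the sources used here.

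Counts were fitted on all genes with edgeR 4.0.16 in R 4.3.3 (TMM, filterByExpr, quasi-likelihood F test, Benjamini-Hochberg). Of 54532 genes, 27180 had a count and 15351 were tested. Each SE was derived from the F statistic. Levels are CPM, and centred log2 CPM used a prior count of 2. A negative log2 fold change is lower in DXZ. The test was checked on simulated data. Alternatives were median-of-ratios scaling, no filter, 1 CPM in 3 libraries, DESeq2 1.42.0, limma 3.58.1 (voom with quality weights, and log2 of FPKM plus 1 or 0.1), each library left out and the replicate number as a block. No library was a copy of another, since pairs within a group had a chi-square of 14.0 to 90.4 per degree of freedom. The members, lists and tests were chosen with earlier results of these data known. Named pathway genes are those past the threshold plus Arg1, Otc, Nos1, Nos2, Nos3, Ckb, Ddah2, Slc16a12 and Prmt1, and for each member the 3 nearest profiles, of which 1 is not reported here.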

Additional observations from a re-analysis of the deposited data

Results flagged for a closer look

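In the saline group of 4, saline 1 was separated from the other libraries by more than 0.829 of the group's range for Gatm, at 591 CPM, and for Ass1, at 2406 CPM. Saline 3 was so separated for Arg1, at 0.92 CPM. These are 3 of 22 genes examined in this way, where chance flags about 1 in 20. Groups of 3 were not examined.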

How the results depend on the processing

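Every alternative run kept the direction of all 8 members' log2 fold changes. All tested genes past the threshold numbered 853, and 983 of 27180 in edgeR without a filter (560 higher and 423 lower). They numbered 2011 with DESeq2 and 145 with limma on log2 of FPKM plus 1 without a filter. They numbered 1332 without saline 1 and DXZ 1, and 1 to 1574 with single libraries left out. The count of members past it was 3 without a filter, 4 with DESeq2, 2 with limma-voom, 1 with limma on filtered FPKM plus 1 or 0.1, 5 without saline 1 and DXZ 1, and 0 to 2 with single libraries left out. Pathway genes past it were 1 with unfiltered FPKM and 0 to 8 with single libraries left out, and the pathway median then ranged from -0.20 to -0.0099. Log2 fold changes that now passed were -2.89 (no filter and DESeq2), -2.28 (voom) and -2.17 (saline 1 and DXZ 1 out) for Gatm. For Ass1 they were -1.38 (no filter and DESeq2), -1.08 (voom), -1.33 (filtered FPKM plus 1 or 0.1), -0.91 (saline 1 and DXZ 1 out) and -1.35 (summed with Gm5424). For Asl they were -0.99 (no filter and DESeq2) and -0.71, for Oat -0.52 (DESeq2) and -0.65, and for Arg2 1.147 (the last of each with saline 1 and DXZ 1 out). With single libraries left out, Gatm ranged from -3.16 to -1.90, Ass1 from -1.62 to -1.04, Asl from -1.10 to -0.73, Oat from -0.61 to -0.41 and Arg2 from 0.84 to 1.55. Ckb changed sign to -0.049 with voom, -0.013 with FPKM plus 1 (filtered or not), -0.015 with FPKM plus 0.1, -0.26 without saline 1 and DXZ 1, and was between -0.21 (without DXZ 1) and 0.20 (without DXZ 2) with single libraries left out. Ass1 relative to proximal tubule markers was -0.21 with S3 markers, 0.36 without saline 1 and DXZ 1, and -0.11 to 0.36 with single libraries left out. The cause of these changes was not tested. Deviations of same-numbered libraries correlated at 0.26, -0.09 and 0.23, within the range of -0.46 to 0.43 for differently numbered ones. So few values cannot decide whether replicate numbers pair the libraries. With the replicate block 85 genes, 0 members and 1 pathway gene passed, and Gatm was at -2.61. Low counts limit what can be said of Otc, Cps1, Nos1, Nos2 and Arg1. DESeq2 and limma on FPKM also changed the genes tested (16097 for DESeq2, 12409 and 27180 for filtered and unfiltered FPKM). The fit without both libraries and the summed fit were chosen after seeing the data.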
